A study of Mus musculus with 6 samples.

Results

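The interferon regulatory factors (IRFs) are a family of transcription factors that share a DNA-binding domain. The 8 genes Irf1, Irf2, Irf3, Irf4, Irf5, Irf7, Irf8 and Irf9 were taken by symbol from the 16254 genes of the deposited count table. Eosinophils were grown from bone marrow of C57BL/6 mice of 6 to 12 weeks, first with FLT3 ligand and stem cell factor and then with IL-5, and were treated on culture day 12. RNA was sequenced after 24 h from 3 cultures that received extracellular vesicles (EVs) from activated TH2 cells at 5e9 EVs per mL and from 3 cultures that received sham, which was medium without T cells taken through the same purification. The EVs came from splenic and lymph node CD4+ T cells polarized to TH2 cells and stimulated again through the T-cell receptor. Both groups had the same genotype and differentiation, and the sequenced RNA was that of the whole culture without a stated sort.

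IRFs bind variants of a GAAA repeat in promoters and enhancers. IRF3, IRF5 and IRF7 act downstream of sensors of microbial nucleic acid, IRF9 joins STAT factors in the complex ISGF3 that answers type I interferon, and IRF1 and IRF2 compete for the same element as activator and repressor. IRF4 and IRF8 bind weakly alone and act with Ets and AP-1 factors in lymphoid and myeloid cells, and IRF8 is best known for directing monocytes and dendritic cells and is also used by eosinophil progenitors.

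The promoters of the IRF genes were searched because 6 of the 8 genes changed, in opposite directions. Promoter sequences from 250 bases before to 50 bases after each start came from RefSeq (GRCm38.p6), and all 8 genes had at least 1 window. Both strands were searched for the interferon-stimulated response element core, which is GAAA, any 2 bases and GAAA again and which 3.44% of 32851 promoters of this length hold, for the gamma-activated site TTCNNNGAA bound by STAT factors, held by 8.30%, and for the kappa B-like site GGGNNTTCC, held by 5.82%. The following stretches, all on the plus strand of GRCm38, are those of the 3 IRF genes with a match upstream of the start, with each match in capitals.
Irf1, chr11:53769894-53769953: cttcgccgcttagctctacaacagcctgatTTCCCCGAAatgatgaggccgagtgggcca
Irf8, chr8:120736158-120736237: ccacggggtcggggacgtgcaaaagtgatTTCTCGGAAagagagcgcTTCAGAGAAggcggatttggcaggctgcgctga
Irf2, chr8:46739495-46739554: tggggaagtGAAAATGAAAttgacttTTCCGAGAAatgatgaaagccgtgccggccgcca
Irf1, which rose, and Irf8, which fell, both held gamma-activated sites, with 1 and 2 matches. Irf2 held a response element core followed by a gamma-activated site, as well as a kappa B-like match that reached into its first exon. These letters were not in the windows of Irf3, Irf4, Irf5, Irf7 and Irf9, and a match is a description of the sequence only.

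The 6 libraries held between 23697620 and 37874426 counts, and 13498 genes passed the low-count filter, all 8 IRF genes among them. Normalized counts are counts divided by a size factor for each library, and EV and sham were compared by the quasi-likelihood test of edgeR at a Benjamini-Hochberg adjusted p under 0.01. Of the 8 IRF genes, 5 rose with EV treatment, 1 fell and 2 did not pass. Among all genes tested, 12.1% rose and 11.6% fell, 23.7% in all, with a median log2 fold change of -0.01. In 5 IRF genes every EV-treated culture lay above every sham-treated culture, against 24.8% of all genes, and in 1 gene below, against 24.7%, so that the groups were separate in 6 of 8 IRF genes and in 49.6% of all genes. DESeq2 called the same 6 IRF genes, and 26.4% of all genes. When a log2 change of 1 or more in size and a mean over 100 normalized counts were also required, 3 IRF genes were higher and 1 lower, where the same rule took 2.70% and 4.76% of all genes.

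**Figure D1:**
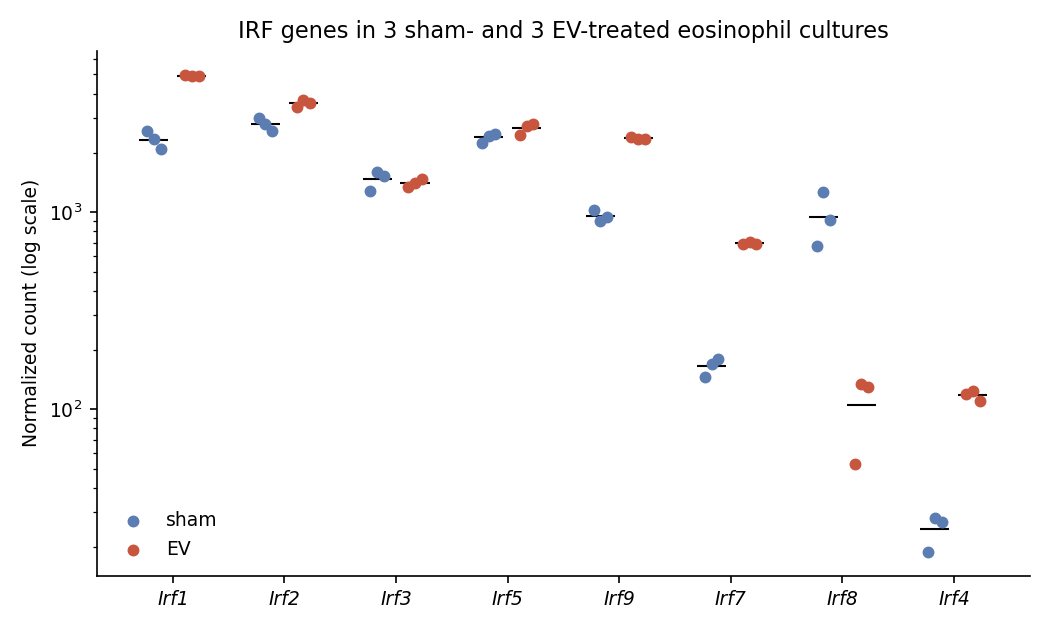
Normalized count of each IRF gene on a log scale, with 1 point per culture, blue for sham and red for EV treatment, and a line at each group mean (n = 3 per group). The groups are separate for Irf1, Irf2, Irf4, Irf7 and Irf9 (EV above) and for Irf8 (EV below), and they overlap for Irf3 and Irf5.

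Irf1 encodes an activator induced by interferon gamma, and Irf2 encodes its relative that mostly represses the same sites. Irf1 (chr11:53770014-53778374, plus strand, in the GENCODE vM21 annotation of GRCm38) was at 2575, 2342 and 2085 normalized counts in sham-treated replicates 1 to 3 and at 4989, 4923 and 4883 in EV-treated replicates 1 to 3. All EV-treated cultures stood well above all sham-treated cultures, and they were closer to each other than the sham-treated cultures were. Irf1 rose 2.11-fold, a log2 fold change of 1.08 ± 0.0797 (SE, edgeR adjusted p 4.81e-06).

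Irf2 (chr8:46739732-46847458, plus strand) was at 3004, 2802 and 2581 normalized counts with sham and at 3405, 3722 and 3583 with EVs. The groups were separate but near each other. EV treatment raised Irf2 by 0.35 ± 0.0734 (SE) on the log2 scale (edgeR adjusted p 0.00402). This call did not hold without sham replicate 2, sham replicate 3, EV replicate 2 or EV replicate 3, where the adjusted p lay between 0.0120 and 0.0235 at log2 fold changes of 0.31 to 0.36, nor without TMM scaling (0.20, adjusted p 0.0479).

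Within a library, the ratio of Irf1 to Irf2 counts was 0.857, 0.836 and 0.808 with sham and 1.47, 1.32 and 1.36 with EVs. Irf1 counts were thus below Irf2 counts in every sham-treated culture and above them in every EV-treated culture. The log2 ratio was higher by 0.73 with EVs, with an exact two-sided permutation p of 0.1, the smallest that 3 against 3 samples allow.

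The IRF2-binding proteins are co-repressors named for their partner. Of the 3 genes, Irf2bpl fell and the others did not pass. Irf2bpl was at 1575, 1336 and 1508 normalized counts with sham and at 778, 896 and 1033 with EVs, a log2 fold change of -0.71 (edgeR adjusted p 0.000814). Irf2bp1 had a log2 fold change of -0.45 (edgeR adjusted p 0.0275) and passed without TMM scaling and without sham replicate 1. Irf2bp2, by count the most abundant of these genes at 23882 to 27280 in all 6 cultures, had a log2 fold change near 0, whose sign varied with the settings.

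IRF9 is the DNA-binding subunit of ISGF3. Irf9 (chr14:55603571-55610030, plus strand) was at 1023, 901 and 948 normalized counts with sham and at 2412, 2363 and 2346 with EVs. The EV-treated cultures lay close together and far above the sham-treated cultures. Irf9 rose 2.48-fold, a log2 fold change of 1.31 ± 0.0729 (SE, edgeR adjusted p 7.96e-07). Irf9 overlaps Rnf31 on the same strand, and 4.24% of its 31-base words occur in another gene.

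The genes around IRF9 were the interferon receptors with their kinases and STAT factors, of which 3 of 15 rose and 1 fell, with a median log2 fold change of 0.08. Stat2, the obligate partner of IRF9, was at 1408, 1529 and 1292 normalized counts with sham and at 1920, 1929 and 2055 with EVs, a log2 fold change of 0.48 (edgeR adjusted p 0.000996). The EV-treated cultures were above the sham-treated cultures for Irf9 and for Stat2, with the smaller difference for Stat2.

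Among the kinases, Jak2 rose with a log2 fold change of 1.41 (edgeR adjusted p 6.44e-08), whereas Jak1 and Tyk2, which serve the type I interferon receptor, had log2 fold changes of 0.03 and 0.14, which turned negative without TMM scaling, and did not pass. Ifnar2, a chain of the type I interferon receptor, fell from 3753, 3955 and 3774 normalized counts with sham to 2419, 2288 and 2528 with EVs, a log2 fold change of -0.67 (edgeR adjusted p 2.88e-05). Its partner chain Ifnar1 had a log2 fold change of -0.34 (edgeR adjusted p 0.0133), and it passed in DESeq2, without TMM scaling and without sham replicate 1. The interferon gamma receptor chains Ifngr1 and Ifngr2 each had a log2 fold change of 0.17 and did not pass. Thus Ifnar2 moved in the opposite direction to Irf9 and Stat2.

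The remaining gene that rose was Stat3, at 0.30, a call lost without sham replicate 2, EV replicate 2 or EV replicate 3 (adjusted p 0.0111 to 0.0209) and without TMM scaling (log2 fold change 0.15, adjusted p 0.0577). The genes Stat4, Stat5a, Stat5b, Stat6, Il10rb and Ifnlr1 did not pass, with log2 fold changes of 0.20, 0.08, -0.10, -0.08, -0.24 and -1.03. Of 21 listed interferon genes, Ifnz alone was analysed here. Ifnz was at 0 to 18.2 normalized counts with sham and 0.870 to 3.996 with EVs, and it did not reach the low-count filter.

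Of 50 listed targets of ISGF3, 45 were tested, with a median log2 fold change of 0.59. Of these, 18 rose and 2 fell, against 12.1% and 11.6% of all genes tested. In that list 14 genes stayed under 100 normalized counts in every library. Usp18, which removes ISG15 from proteins and restrains the type I interferon receptor, was at 56.8, 17.2 and 96.0 normalized counts with sham and at 290, 393 and 385 with EVs, a log2 fold change of 2.65 (edgeR adjusted p 0.000989). Oasl2, of the oligoadenylate synthetase family, was at 158, 239 and 126 with sham and at 647, 775 and 616 with EVs, a log2 fold change of 1.96 (edgeR adjusted p 7.33e-05). Both were higher in all EV-treated cultures.

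Isg15 was at 28.8, 41.7 and 30.4 normalized counts with sham and at 83.9, 89.1 and 92.3 with EVs. Its log2 fold change of 1.40 missed the threshold in edgeR (adjusted p 0.0105), and it passed in DESeq2, in limma, without the low-count filter and without sham replicate 2. Ifit1, Ifit2, Ifit3, Ifit3b, Mx1 and Mx2, named after their values were seen, lay between 0 and 69.4 normalized counts across all libraries. Rsad2 and Cmpk2 of the same list, also named after their values were seen, rose. Each was higher in all EV-treated cultures, with log2 fold changes of 1.69 and 1.76 (edgeR adjusted p 0.00185 and 3.53e-05). The 2 targets that fell, also named after their values were seen, were Slfn5 (-0.95) and Ifitm3 (-1.44) on the log2 scale. Both calls were lost without sham replicate 2, sham replicate 3 or EV replicate 3.

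Of 40 genes listed as IRF1 targets from general knowledge, 35 were tested. Of these, 23 rose and 1 fell, against 12.1% and 11.6% of all genes tested. The median log2 fold change of the list was 0.74, and 10 of its genes stayed under 100 normalized counts in every library. Socs1, a feedback inhibitor of JAK kinases, was at 123, 174 and 82.6 normalized counts with sham and at 4002, 4345 and 4661 with EVs, a log2 fold change of 5.10 (edgeR adjusted p 5.75e-08). Gbp2, an interferon-inducible GTPase, had a log2 fold change of 2.59, and Ptgs2, which makes prostaglandin precursors, one of 2.25 (edgeR adjusted p 1.22e-05 and 4.31e-06). Socs1 and Ptgs2 are also induced by signals other than IRF1.

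Nlrc5, the activator of MHC class I genes, was at 504, 520 and 446 normalized counts with sham and at 1683, 1485 and 1373 with EVs, a log2 fold change of 1.63 (edgeR adjusted p 2.19e-06). Its MHC class II counterpart Ciita was at 14.4, 61.3 and 13.4 with sham and at 30.97, 72.9 and 74.0 with EVs, groups that overlapped. The only target that fell was Il15 (-1.60), named after its value was seen, and its call was lost without sham replicate 3 or EV replicate 2. Neither Gbp3 nor Iigp1 exceeded 3 counts in any library with sham, and they were at least 7.86-fold and 7.08-fold higher with EVs against 3 counts per library.

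IRF3 is made constantly and is activated by phosphorylation, IRF5 acts downstream of MyD88, and IRF7 is itself induced through ISGF3 and amplifies type I interferon genes. Irf7 (chr7:141262706-141266481, minus strand) was at 146, 170 and 180 normalized counts with sham and at 688, 708 and 687 with EVs. The EV-treated cultures were nearly level with each other and far above sham. Irf7 thus rose 4.21-fold, a log2 fold change of 2.07 ± 0.134 (SE, edgeR adjusted p 2.09e-06).

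Irf3 (chr7:44997648-45002848, plus strand) was at 1281, 1594 and 1530 normalized counts with sham and at 1336, 1407 and 1467 with EVs. Every EV-treated culture lay within the range of the sham-treated cultures. Its log2 fold change was -0.06 ± 0.0936 (SE, edgeR adjusted p 0.642).

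Irf5 (chr6:29526625-29541871, plus strand) was at 2248, 2435 and 2502 normalized counts with sham and at 2458, 2750 and 2808 with EVs. The groups overlapped, with EV replicate 1 inside the sham range. The difference was 0.16 ± 0.0752 (SE) on the log2 scale and did not pass (edgeR adjusted p 0.133). Irf5 shares 14.1% of its exon bases with Tnpo3 on the opposite strand. Likewise, Irf1 shares 3.40% with Gm17334, Irf3 shares 2.56% with Bcl2l12 and Irf7 shares 1.19% with Phrf1. The sources used here do not say whether the strand was used in counting.

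The ratio of Irf7 to Irf3 counts was 0.114, 0.107 and 0.118 with sham and 0.516, 0.504 and 0.468 with EVs. Irf3 remained the more abundant by count in every culture, by a smaller margin with EVs. The log2 ratio was higher by 2.13 with EVs, with an exact two-sided permutation p of 0.1, the smallest possible.

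**Figure D2:**
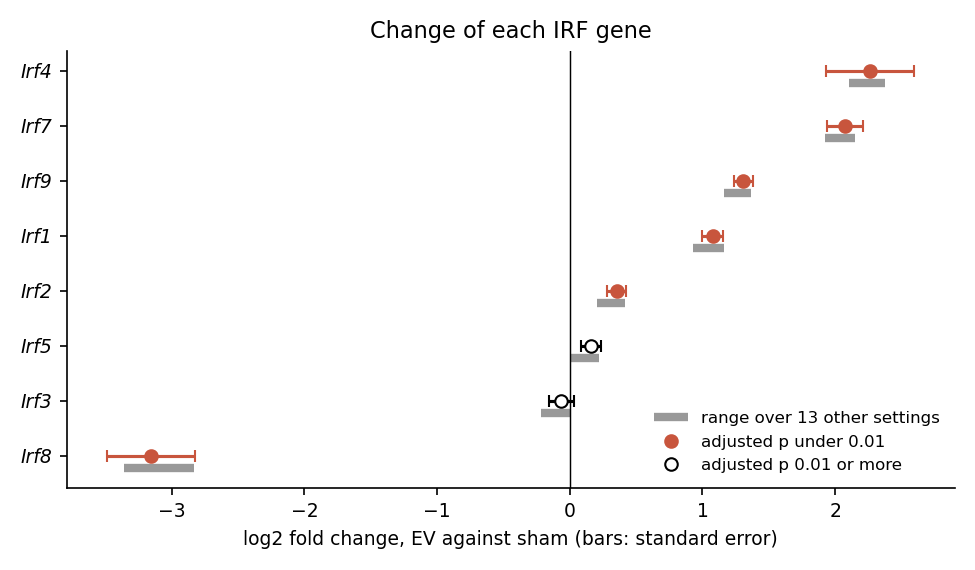
Log2 fold change of each IRF gene, EV against sham, with its standard error (edgeR, n = 3 per group), filled where the adjusted p is under 0.01, and a grey bar for the range over 13 other settings. Irf8 stands alone on the left at -3.15, and Irf4 and Irf7 are the farthest to the right at 2.26 and 2.07.

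IRF8 directs monocyte and dendritic cell development. Irf8 (chr8:120736358-120756694, plus strand) was at 672, 1266 and 911 normalized counts with sham and at 52.9, 135 and 130 with EVs. All EV-treated cultures were far below all sham-treated cultures, and replicate 1 was the lowest in both groups. Irf8 fell 8.90-fold, a log2 fold change of -3.15 ± 0.333 (SE, edgeR adjusted p 5.01e-05).

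Irf8 had the largest relative spread of the IRF genes, at 31.5% of the mean with sham and 43.3% with EVs, where Irf9 had 6.42% and 1.44%. Without any single library its log2 fold change lay between -3.35 and -2.83, and it passed each time. In bulk RNA, fewer cells of a type and less RNA per cell cannot be told apart. The study reports higher eosinophil survival and less apoptosis with these EVs than without treatment. Survival in the sequenced cultures is not given in the sources used here. The part of cell survival in the differences between EV and sham was not tested, for the IRF genes or for any other gene.

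Most but not all listed markers of monocytes and macrophages, in which IRF8 is also made, fell as Irf8 did. Of 10 markers, 7 fell and 2 rose, with a median log2 fold change of -2.31. The 7 that fell, Csf1r, Cd68, Mertk, C1qa, C1qb, C1qc and Marco, had log2 fold changes of -1.31 to -2.87, and all 7, like Irf8, were lowest in replicate 1 of both groups. Fcgr1, which did not pass (log2 fold change -0.63), was also lowest in replicate 1 of both groups. The share of all genes with this pattern was not counted. The summed level of the 7, which were taken because they fell, was 21649, 35931 and 33022 normalized counts with sham and 7137, 9603 and 9612 with EVs.

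The markers that rose were Adgre1, which eosinophils also express, and Ly6c2, and the whole list summed to 54002 to 67224 with sham and 66710 to 72186 with EVs. Irf8 per 100 normalized counts of C1qa, C1qb and C1qc together, a measure chosen after the values were seen, was 11.6, 11.2 and 9.30 with sham and 5.81, 7.31 and 6.75 with EVs. This ratio was lower in every EV-treated culture, by less than the fall of Irf8 itself. Its size depends on the marker chosen, because the markers that fell did so unequally, from -1.31 for Csf1r to -2.87 for Marco on the log2 scale. The part of these marker genes in the fall of Irf8 was not tested.

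**Figure D3:**
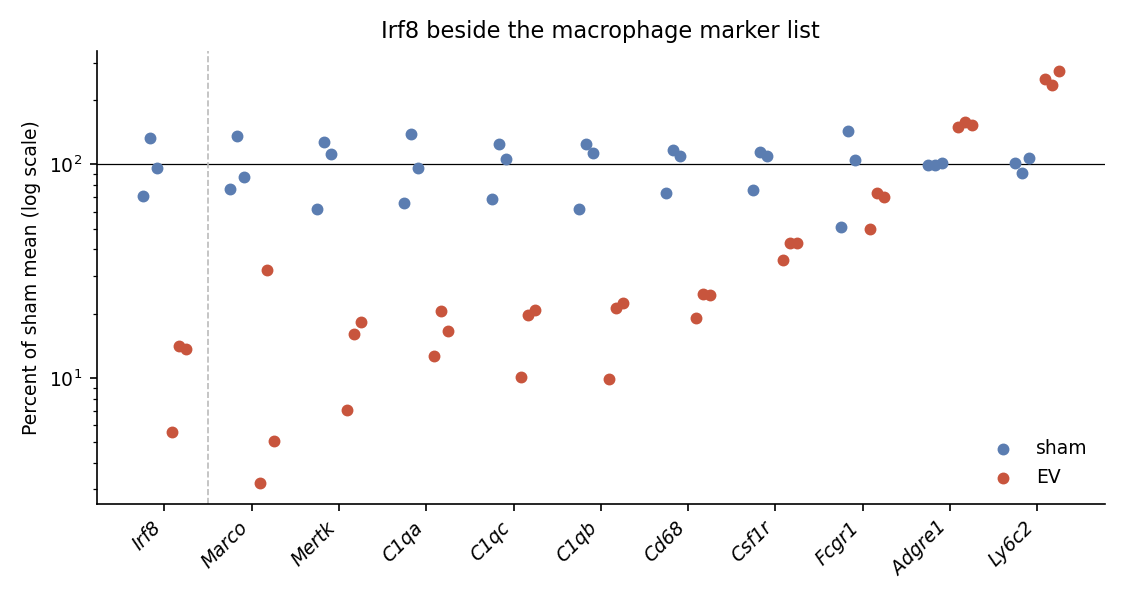
Irf8 and the 10 monocyte and macrophage markers, each culture as a percent of the gene's sham mean, on a log scale, with sham and EV-treated cultures as separate points. Irf8 and the 7 markers that fell sit below the line at 100 in all EV-treated cultures, whereas Adgre1 and Ly6c2 sit above it.

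Other cell types in which IRF8 or IRF4 are prominent gave weaker marker signals. Of 12 dendritic cell markers, 9 were tested and only Tcf4 passed, with a fall of -2.16 on the log2 scale, and their summed level was 2805 to 5588 with sham and 1778 to 2748 with EVs. Siglech, which marks plasmacytoid dendritic cells, was at 0 in 5 of the 6 libraries. Of 13 B and T cell markers, 5 were tested and 0 passed in edgeR (0 at an unadjusted p under 0.05, and 0 passed in DESeq2), and their summed level was 246 to 382 with sham and 272 to 305 with EVs.

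Eosinophil markers were abundant in all libraries, with a summed level of 930213 to 1172124 with sham and 1329200 to 1486135 with EVs, and 8 of 11 rose, with a median log2 fold change of 0.69. Of 7 tested mast cell and basophil markers 5 rose (median 1.55, summed level 4510 to 5943 with sham and 11570 to 13681 with EVs), and of 9 neutrophil markers 2 rose and 4 fell (median -0.33, 11175 to 12517 with sham and 12243 to 13047 with EVs). The part of these shifts in the changes of the IRF genes was not tested.

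IRF4 is related to IRF8 and shares its partners, and it is induced by antigen receptor and IL-4 signals. Irf4 (chr13:30749226-30766976, plus strand) was at 18.9, 28.2 and 26.7 normalized counts with sham and at 120, 124 and 110 with EVs. Irf4 was low in all cultures but higher in each EV-treated culture than in any sham-treated culture. Irf4 rose 4.80-fold, a log2 fold change of 2.26 ± 0.333 (SE, edgeR adjusted p 0.000473).

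The ratio of Irf8 to Irf4 counts was 34.7, 43.98 and 33.4 with sham and 0.444, 1.08 and 1.18 with EVs. Irf8 counts were many times those of Irf4 with sham. With EVs the counts were close in replicates 2 and 3, and Irf4 was clearly the higher in replicate 1. These counts are not divided by transcript length. Per kb of the longest coding transcript, EV-treated replicates 1 to 3 were at 18.6, 47.3 and 45.6 for Irf8 and at 25.2, 26.1 and 23.0 for Irf4. The log2 ratio was lower with EVs by -5.48, with an exact two-sided permutation p of 0.1, the smallest possible.

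Of 20 listed partners of IRF4 and IRF8 and factors of the same myeloid and lymphoid programs, 18 were tested, 4 rose and 5 fell, with a median log2 fold change of 0.11. Spi1, which encodes the Ets factor PU.1 that recruits both IRFs to DNA, was at 12099, 11472 and 10763 normalized counts with sham and at 12556, 12609 and 13621 with EVs, and did not pass (log2 fold change 0.18, edgeR adjusted p 0.0519). Batf3, an AP-1 partner of both, was at 17.1, 41.7 and 19.4 with sham and at 87.9, 117 and 80.9 with EVs, a log2 fold change of 1.87 (edgeR adjusted p 0.00761). Leaving out any library but sham replicate 2 lost the Batf3 call (adjusted p 0.0154 to 0.0543), as did omitting TMM scaling (adjusted p 0.0122). The abundant Spi1 was thus near level, and the rarer Batf3 rose.

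The largest falls were those of Bcl6, a repressor, from 1559 ± 108 (SD, n = 3) to 251 ± 22.3 normalized counts, and of Jun, an AP-1 subunit, from 2505 ± 269 to 493 ± 76.5. Cebpa, a myeloid factor, fell from 3952 ± 822 to 806 ± 49.99. Their log2 fold changes were -2.64, -2.34 and -2.29, with edgeR adjusted p-values of 9.31e-08, 6.04e-07 and 1.49e-06. Besides Batf3, the genes that rose were Junb, Jund and Cebpb, named after their values were seen. Mean normalized counts with sham and with EVs were 11596 and 22564 for Junb, 5610 and 8812 for Jund, and 8439 and 14685 for Cebpb. Edge R log2 fold changes were 0.96, 0.65 and 0.80 (adjusted p 1.22e-05, 5.32e-05 and 9.77e-06). Prdm1 (-1.71) and Zeb2 (-0.35), named likewise, also fell.

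IRF4 is known to serve the alternative activation of macrophages. A list of 10 genes of that program, not all of them targets of IRF4, had 5 genes that rose and 1 that fell, with a median log2 fold change of 2.24. Retnla, a resistin-like secreted protein, was at 32.4, 8.58 and 14.6 normalized counts with sham and at 5129, 4561 and 3793 with EVs. Arg1, which splits arginine, was at 0, 13.5 and 21.9 with sham and at 1054, 1463 and 1395 with EVs. Both were near absent from sham-treated cultures and plentiful in all EV-treated cultures.

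Their log2 fold changes were 7.81 and 6.91 (edgeR adjusted p 2.87e-08 and 2.61e-06). With sham near 0 these sizes rested on single libraries, at 8.59 for Retnla without sham replicate 1 and at 6.20 and 7.80 for Arg1 without sham replicates 1 and 3. Neither Ccl24 nor Mgl2 exceeded 3 counts in any library with sham, and against 3 counts per library they were at least 47.9-fold and 15.7-fold higher with EVs. The remaining gene that rose was Kdm6b (0.52), and the gene that fell was the chemokine Ccl17 (-1.37), which IRF4 is known to activate. The genes of this list therefore did not all move with Irf4.

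**Figure D4:**
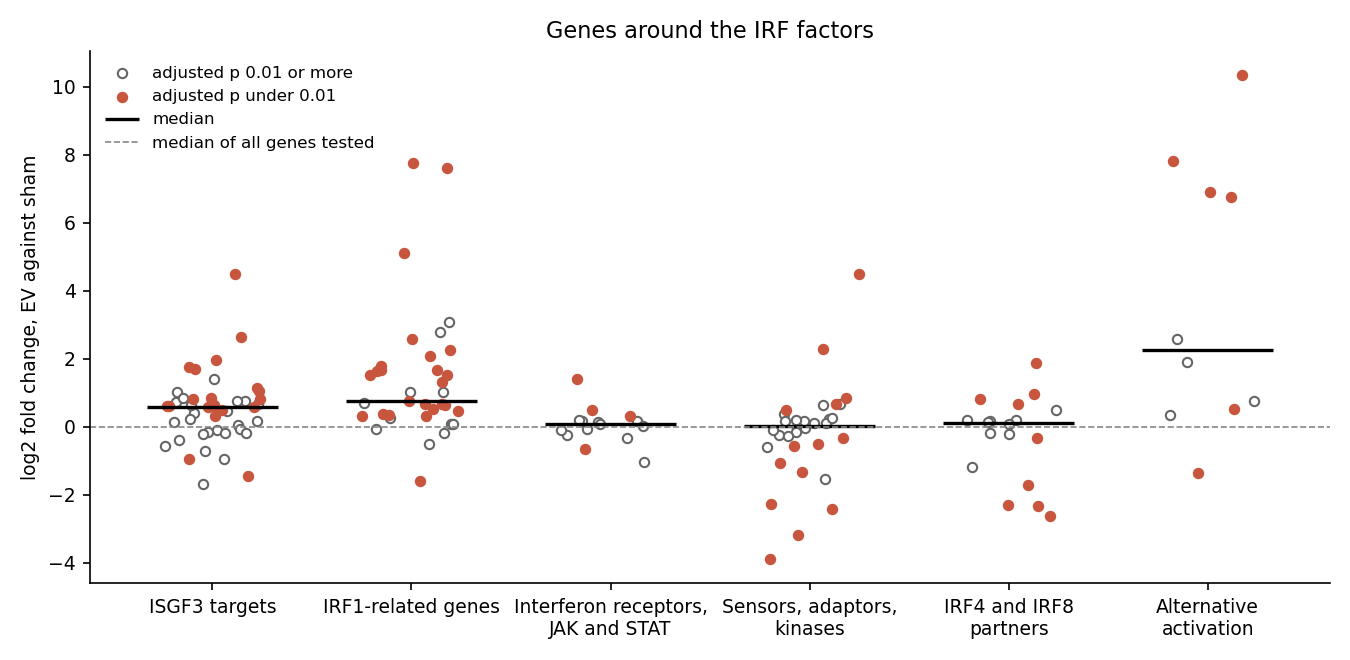
Log2 fold change, EV against sham, of each tested gene in the lists around the IRF factors, with 1 point per gene, filled where the adjusted p is under 0.01, a black line at each list's median and a dashed line at the median of all genes tested. The medians are highest for the IRF4 list (2.24), the IRF1 targets (0.74) and the ISGF3 targets (0.59), and the plotted values of Gbp3, Iigp1, Ccl24 and Mgl2 depend on the fit because sham held at most 3 counts.

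To compare levels between the IRF genes, normalized counts were divided by the length in kb of each gene's longest coding transcript in GENCODE vM21. With sham, Irf2 (1120 ± 84.8, SD, n = 3), Irf1 (1092 ± 115) and Irf5 (1069 ± 58.7) were highest per kb and their ranges overlapped. Irf3 followed at 723 ± 81.4, then Irf8 (334 ± 105) and Irf9 (323 ± 20.8), whose ranges overlapped, and then Irf7 (73.9 ± 7.81) and Irf4 (5.17 ± 1.05). Irf4 was thus the lowest per kb, below every other IRF gene in all 3 cultures.

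With EVs the order per kb was Irf1 (2308 ± 25.1, SD, n = 3), Irf2 (1430 ± 63.6), Irf5 (1192 ± 83.7), Irf9 (802 ± 11.6), Irf3 (691 ± 32.3) and Irf7 (310 ± 5.29). Irf8 (37.1 ± 16.1) and Irf4 (24.8 ± 1.57) came last and overlapped. Apart from Irf8 and Irf4, no neighbours in this order overlapped. Irf1 was thus first in every EV-treated culture, whereas with sham it was not separate from Irf2 (1205 against 1203 in sham replicate 1). Irf9 passed Irf3, and Irf8 dropped below Irf7.

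The summed IRF level per kb was 4693, 4921 and 4605 with sham and 6619, 6902 and 6863 with EVs, 1.43 times higher. Irf1 made up 23.0% ± 2.34 (SD, n = 3) of that sum with sham and 34.0% ± 1.12 with EVs, and Irf9 made up 6.84% ± 0.598 and 11.8% ± 0.435. The share of Irf8 was 7.01% ± 2.00 with sham and 0.543% ± 0.227 with EVs. The shares of Irf3 and Irf5 were smaller with EVs, at 10.2% against 15.3% and 17.5% against 22.6%, although the levels of these genes did not pass the test.

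**Figure D5:**
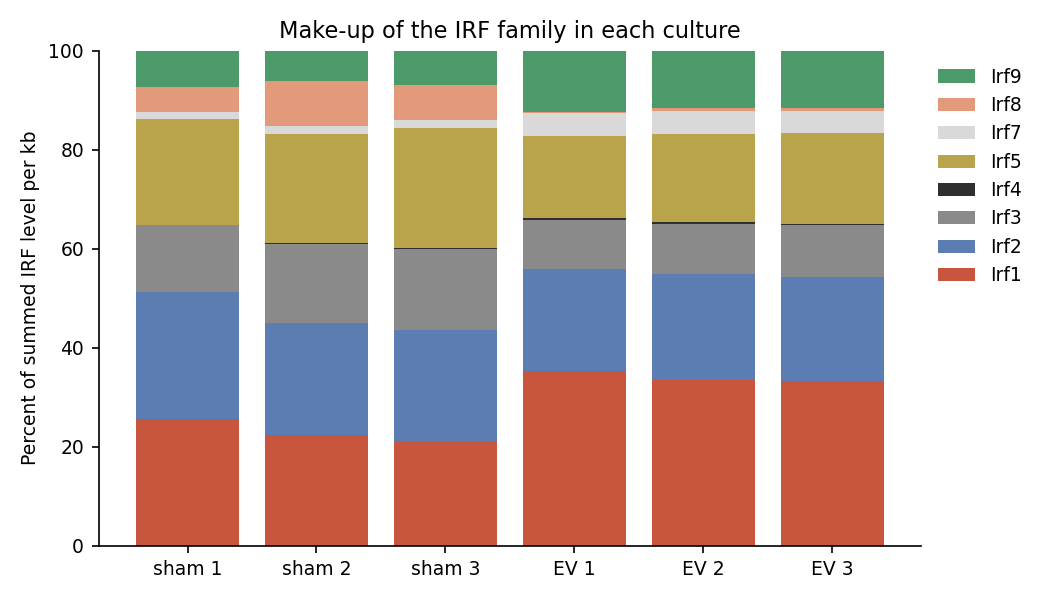
Share of each Irf gene, in percent, in the summed level per kb of the 8 IRF genes, as 1 stacked bar per culture. The share of Irf1 is between 21.2% and 25.7% in the sham-treated cultures and between 33.3% and 35.3% in the EV-treated cultures, and the Irf8 share narrows to under 1% with EVs.

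The genes whose deviations from the group means were most like those of each changed IRF gene were described over the 6 samples, among about 10453 genes with a mean normalized count over 100. For Irf8 they were Cdk20 (Pearson r 0.995), Mtmr4 (0.994) and Apoe (0.993), and for Irf9 Wipi1, Sp110 and Eif4ebp1 (0.997, 0.997 and 0.996). For Irf1 they were Rad17, Pex7 and Carhsp1, for Irf2 Bhlhe40 and Mtx2, for Irf4 Cast, Dnajb11 and Gpr89, and for Irf7 Arl5a, Slc25a51 and Snapc3. With so few samples, and with all genes measured in the same 6 libraries, between 63 and 245 genes had an r over 0.95 with a given IRF gene.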

How the data were processed

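RNA libraries were made by poly(A) selection from 3 sham- and 3 EV-treated cultures, labelled as biological replicates. Per the submitters' processing notes and methods, reads were checked with FastQC, trimmed with Cutadapt and quantified with Salmon against mm10, and groups were compared with DESeq2. Versions, annotation and strandedness were not given in the sources used here. For 16254 genes the authors deposited estimated counts, some of them fractional. Their deposited normalized counts are a signal made from the rounded count plus 1 and a size factor per sample. The authors also gave a table of their comparison (fold changes, errors, statistics and p-values), which was not used.

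Estimated counts were rounded, filtered with filterByExpr, scaled by TMM and tested with edgeR 4.0.16 (R 4.3.3) over 13498 genes, with Benjamini-Hochberg adjustment and a threshold of 0.01. Each standard error is the log2 fold change over the root of the F statistic. Ratios had 0.5 added to each count. The method was tested on simulated data. No samples agreed within sampling noise (chi-square per gene of 8.37 to 31.8 within groups). For genes with high counts, precision is set by how the cultures vary, with counting error small. For genes with few counts, such as Irf4 at 21 to 23 in each sham-treated library, counting error is not small.

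The IRF genes and gene lists were chosen with earlier results of these data known. Lists were written from general knowledge, and some share genes such as Stat2 and Zbp1. Some genes of these lists and rules are not reported here. Named genes were the IRF genes, IRF2-binding proteins and receptor pathway genes, the 3 largest changes of each other list past an adjusted p of 0.01 without overlap and with a mean over 100, and Usp18, Isg15, Nlrc5, Ciita, Spi1 and Batf3. Kdm6b, Ccl24, Mgl2, Gbp3, Iigp1, Tcf4, Siglech and the sensor genes besides Zbp1, Tlr7 and Tlr8 were named after their values were seen, as were others where stated. For likeness, the 3 genes with the highest r were taken. Alternatives were no TMM, RLE factors, no filter, DESeq2 1.42.0, limma 3.58.1 on the deposited normalized counts (plus 1, log2), a replicate block, other thresholds and leaving out each sample.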

Additional observations from a re-analysis of the deposited data

How the results depend on the processing

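Irf1, Irf3, Irf4, Irf5, Irf7, Irf8 and Irf9 kept their direction and their side of the threshold in all 13 other settings. Irf2 did not pass without TMM (log2 fold change 0.20, adjusted p 0.0479), and when single samples were left out its log2 fold change lay between 0.31 and 0.41, with adjusted p from 0.00145 to 0.0235. The 5 IRF genes that rose became 3 under the demand of at least a 1-unit log2 change and a mean over 100, and 4 to 5 with single samples left out. Irf2, at a log2 fold change of 0.35, and Irf4, at a mean of 71.3 normalized counts, did not meet that demand. With single samples left out, Irf2 was the only IRF gene that lost its call.

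Among all genes, 1632 rose and 1572 fell. Without TMM the median of all genes moved by -0.15, with 1036 higher and 2342 lower, so that 30.7% rather than 50.9% of calls were higher. With the demand on size 365 rose and 642 fell, at an adjusted p under 0.05 2362 rose and 2478 fell, and with single samples left out 1071 to 1833 rose and 1018 to 1698 fell. The lowest counts were 1071 higher and 1018 lower, both without EV replicate 3. The highest were 1833 higher and 1698 lower, both without sham replicate 1. Each of these fits had fewer samples than the main fit. DESeq2 called 26.4% of 14909 genes.

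With single samples left out, 15 to 24 IRF1 targets rose (15 without EV replicate 2 or 3) and 0 to 2 fell, 0 to 3 ISGF3 targets fell and 5 to 9 sensor genes fell (5 without sham replicate 2 or EV replicate 2 or 3). The demand on size left 10 IRF1 targets, 7 ISGF3 targets, 1 receptor pathway gene, 2 sensors, 2 alternative activation genes and 0 IRF4 and IRF8 partners higher, and 5 sensors lower. At an adjusted p under 0.05, 9 sensors and 8 alternative activation genes were higher. Receptor pathway genes that fell numbered 4 without TMM, 3 at 0.05 and 2 with DESeq2.

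Some small changes that did not pass turned sign. Irf2bp2 was at 0.011 without the filter, 0.0011 with DESeq2 and -0.041 to 0.054 with single samples left out. Without TMM, Jak1 was at -0.12, Tyk2 at -0.0061 and Stat5a at -0.068, and with single samples left out Jak1 ranged from -0.0075 to 0.066.

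Same-numbered samples of the groups had correlated deviations of 0.117, 0.0846 and 0.0371, and 5 of 6 samples correlated best with their own number. Not all of these values were over the limit of 0.1, and the main fit did not use the number. Whether same-numbered cultures share a source is not stated, and these correlations cannot decide it. With the replicate number as a block 1794 genes rose and 1781 fell, 5 IRF genes rose and 1 fell, and 8 sensors rose, 2 IRF2-binding proteins fell (Irf2bp1 among them, adjusted p 0.00722), 2 receptor pathway genes fell (Ifnar1 among them, 0.00279) and 2 IRF1 targets fell. The block changed no call of an IRF gene, and with sign flips over 3 pairs the ratio tests cannot go below 0.25. Irf4 rested on 21 to 23 counts in each sham-treated library.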

Other observations

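Of 34 tested genes for sensors, adaptors and kinases that act upstream of IRF3, IRF5 and IRF7, 5 rose, 9 fell and 20 did not pass with EVs, against 12.1% and 11.6% of all genes, with a median log2 fold change of 0.03. Zbp1, a sensor of left-handed nucleic acid that is itself interferon-inducible, was at 75.7, 45.3 and 13.4 normalized counts with sham and at 1038, 1094 and 1017 with EVs, a log2 fold change of 4.49 (edgeR adjusted p 9.31e-06). All EV-treated cultures were far above sham, and without sham replicate 1 the log2 fold change was 5.16.

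Tlr7 and Tlr8, endosomal receptors of single-stranded RNA that signal through MyD88, fell. Tlr7 was at 250, 385 and 598 normalized counts with sham and at 27.0, 47.1 and 60.1 with EVs, a log2 fold change of -3.18 (edgeR adjusted p 9.62e-05). Tlr8 was at 332, 766 and 701 with sham and at 84.9, 130 and 120 with EVs, a log2 fold change of -2.41 (edgeR adjusted p 0.000178). Like Irf8, both were lowest in replicate 1 of each group, the pattern also seen in the macrophage markers that fell, whose part was not tested. Tlr3 (-3.89) and the chaperone of endosomal receptors Unc93b1 (-1.07) fell as well, whereas Tlr13, another endosomal receptor of RNA, had a log2 fold change of 0.12 and did not pass. Of the surface receptors, Tlr4 rose by 2.28 and Tlr2 fell by 1.33 on the log2 scale.

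Among the kinases and adaptors, the IRF3 kinase gene Tbk1 had a log2 fold change of -0.04 and did not pass, Ikbke fell by 0.50, Mavs fell by 0.56 and Tbkbp1, which encodes a TBK1-binding adaptor, fell by 2.27 on the log2 scale. The adaptor gene Traf3 rose by 0.65 and the cytosolic RNA sensor Rigi rose by 0.85. Irf3 itself did not pass the test.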
